A study of Mus musculus with 4 samples.

Results

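*Mrgpra3*-expressing itch neurons were followed here in the DRG of *Pirt* EGFPf mice. They were the cells with at least 1500 detected genes, at most 10% mitochondrial UMIs and at least 5000 UMIs in which *Mrgpra3* reached at least 1 UMI per 10000 (CP10K), *Nppb* lay below 1 CP10K and the injury marker *Sprr1a* was at or below 1.718 CP10K. In all 4 libraries 429 cells met these limits, 2.41% of the 17836 cells that passed the filters, which in turn came from 23691 deposited cells. Male-Sham held 158 of them, Female-Sham 188, Male-CCI 40 and Female-CCI 43. As the cells were chosen by the measured levels of these 3 genes, their levels and every comparison of levels with other neurons are given as a description without a test. Only the change after CCI was tested against that of other neurons.

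The study compared CCI, the loose ligation of the sciatic nerve that leads to lasting pain hypersensitivity, with sham surgery in both sexes by single-cell RNA-seq. All animals, controls included, were heterozygous *Pirt* EGFPf mice of 7 to 8 weeks on a C57BL/6 background, in which membrane-bound EGFP takes the place of the *Pirt* coding sequence under the endogenous promoter, which is active in most DRG neurons. Lumbar DRGs (L4-5) of both sides were taken on day 7 after bilateral surgery, and each library pooled GFP+ sorted cells from 20 DRGs of 5 mice. There was therefore 1 library per sex and surgery, the mice inside a library cannot be told apart, and since littermates of both sexes received the same operation, litter and surgery cannot be told apart either. All p-values rest on these 4 libraries and measure the spread between these pools. They compare 2 sham with 2 CCI libraries, 2 male with 2 female ones, or the CCI change of 2 sets of neurons from the same libraries. Where 4 values are listed, the sham libraries come before the CCI libraries and the male before the female library of each pair. Levels are UMIs of a gene per 1000000 UMIs of the summed member cells of a library (CPM).

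*Mrgpra3* encodes a G protein-coupled receptor for the itch-inducing drug chloroquine. The small unmyelinated sensory neurons that express it innervate the skin, respond to histamine and to several other pruritogens, and are known to drive scratching. Receptors of this kind signal through Gq and phospholipase C and open TRP channels, and release of peptides and glutamate carries the signal to the dorsal horn.

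The member cells were deeply sequenced. Their median depth was 68755, 52931, 81536 and 65375 UMIs, with 5067 UMIs in the shallowest and 129358 in the deepest cell, and the summed counts came to 10005868, 9452919, 3217371 and 2571324 UMIs. With these totals a gene without a UMI lies below 0.300, 0.317, 0.932 and 1.17 CPM (3 UMIs of the library), so the CCI sums resolve low genes less well than the sham sums. The median share of mitochondrial UMIs was 4.32% and 4.45% in sham and 5.11% and 4.80% in CCI. Of the 429 cells, 409 had more *Tubb3* than *Fabp7* UMIs and 20 did not, and 79 had at least 3 CP10K of *Fabp7*, a satellite glia gene, in numbers of 27, 38, 6 and 8. No barcode was shared between the members of 2 libraries, although 1085 barcodes recurred between libraries among the deposited cells and 24 among the cells that passed the filters. Y-linked *Ddx3y* and *Eif2s3y* were detected in the members of both male libraries and had 0 UMIs in both female libraries.

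The label fits the marker genes. *Mrgpra3* (chr7:47588950-47601372, GRCm38) stood at 286, 315, 276 and 249 CPM in the summed counts of the members and at a mean of 1.17 CPM in all other neurons within the *Sprr1a* limit, which is what the rule selected. The remaining 3 markers were not part of the rule. *Gda* (chr19:21391307-21473445), which encodes guanine deaminase, reached 123, 130, 106 and 104 CPM in members and a mean of 12.2 CPM in the other neurons, and 412 members (96.0%) had a UMI of it. *Smyd3* (chr1:178951960-179518041), a lysine methyltransferase gene, stood at 332, 288, 291 and 296 CPM against a mean of 35.8 CPM. *Etv1* (chr12:38779380-38870484), a transcription factor gene, stood at 394, 390, 391 and 325 CPM against a mean of 66.8 CPM. *Gda* and *Etv1* were not particular to these cells, as neurons with at least 20 CP10K of *Nefh* and no *Mrgpra3* UMI had means of 78.3 and 443 CPM, and neurons with *Nppb* had 283 CPM of *Etv1*. Of the 50 genes the study lists for its cluster of these neurons, a list drawn from these same libraries and so not independent evidence, 49 were higher in members than in the other neurons in all 4 libraries, with a median ratio of 3.68 over all 50. The exception was *Selenom*, at a ratio of 0.123. Compared with *Mrgprd* neurons, fewer of the 50 genes, 40, were higher in members in all 4 libraries. *Ctxn3*, for one, averaged 431 CPM in members and 761 CPM in *Mrgprd* neurons.

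**Figure D1:**
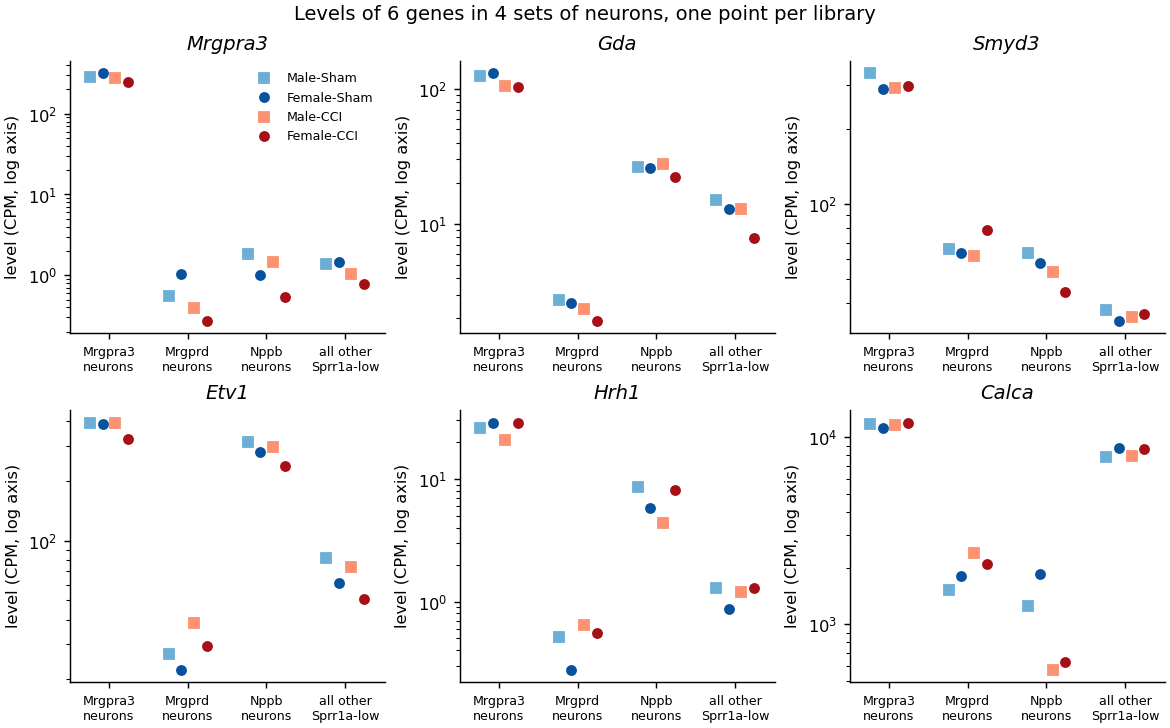
CPM (log axis) of *Mrgpra3*, *Gda*, *Smyd3*, *Etv1*, *Hrh1* and *Calca* in 4 sets of neurons, with 1 point per library. *Mrgpra3* lay at 249 to 315 CPM in members, *Hrh1* followed it at a lower level of 20.8 to 28.9 CPM, and *Etv1* was shared with the *Nppb* neurons, at a mean of 283 CPM.

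There was no gap in *Mrgpra3* at its limit. The lowest member had 1.01, 1.00, 1.00 and 1.01 CP10K of *Mrgpra3* in the 4 libraries. Among the cells that passed the filters, the highest below the limit had 0.997, 0.993, 0.923 and 0.981 CP10K. The 10th percentile of members lay at 1.26, 1.33, 1.23 and 1.13 CP10K. Another 103, 132, 40 and 43 cells that passed the filters, neurons or not, held an *Mrgpra3* UMI below the limit. The limit on *Nppb* removed 1 cell, in Female-Sham, and the highest *Nppb* level in a member was 0.272 CP10K. The *Sprr1a* limit removed 0, 1, 1 and 7 cells with *Mrgpra3*, 9 in all, and 6 of the 9 had fewer than 10000 UMIs, so that a single *Mrgpra3* UMI could bring them past the limit. The lowest *Sprr1a* level among the 9 was 3.31 CP10K and the highest in a member was 0.954 CP10K, so no cell lay close to 1.718 on either side.

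Among all genes with at least 50 CPM in members of every library, 2763 in number, 15 had at least 5 times the mean CPM of the other neurons within the *Sprr1a* limit. After *Mrgpra3* itself the highest ratio was that of *Cfap61*, a gene of motile cilia, at 110 CPM in members and 4.68 CPM elsewhere. *Krt27*, a hair follicle keratin gene, averaged 187 CPM against 23.4 CPM. *Gfra1*, the co-receptor for GDNF, averaged 179 CPM in members, 24.4 CPM in the other neurons and 32.8 CPM in neurons with *Mrgprd*. Its relative *Gfra2*, the co-receptor for neurturin, showed the opposite order, with a mean of 5.81 CPM in members and 323 CPM in *Mrgprd* neurons. *Crip1* (527 against 78.5 CPM), *Cd82* (193 against 29.0 CPM) and *Rspo1*, a WNT pathway agonist (133 against 23.7 CPM), belonged to the same 15, as did *Cav1*, *Moxd1*, *Zfp945*, *Lgi1* and *Ifi27l2a*. *Cd82* and *Lgi1* were also high in *Nppb* neurons (234 and 119 CPM), and *Cav1* and *Moxd1* in *Mrgprd* neurons (82.3 and 46.0 CPM). At the other end stood *Pvalb*, a gene of proprioceptors, with a mean of 1.53 CPM in members and 78.1 CPM in the other neurons, and *Thy1*, with 10.4 CPM against 226 CPM.

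The members carried several receptors for pruritogens. *Hrh1*, which encodes the histamine H1 receptor, stood at 26.1, 28.9, 20.8 and 28.4 CPM in members and at a mean of 1.16 CPM in the other neurons. A UMI of *Hrh1* was found in 73.4%, 70.2%, 72.5% and 67.4% of members, and in 3.20% to 4.0% of 500 other neurons drawn from each library. After each cell was thinned to 5000 UMIs the shares were 15.8%, 14.4%, 12.5% and 16.3% in members and 0.400% to 0.800% in the other neurons. Neurons with at least 20 CP10K of *Nefh*, which serve as a background here, had a UMI of it in 1.56% to 4.40% before and in 0 of 319 cells after thinning, which allows a share of up to 0.940%. Their median depth was 69480 UMIs per cell, against 60793 in members.

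Within the family of Mas-related receptors, 4 of 20 genes reached a mean of 20 CPM. *Mrgpra2b*, a close relative of *Mrgpra3*, stood at 33.9, 31.1, 29.5 and 26.8 CPM against 5.30 CPM elsewhere. *Mrgprx1*, the receptor for the peptide BAM8-22, was low, at 7.5, 7.83, 6.22 and 6.61 CPM, against a mean of 1.40 CPM in the other neurons. *Mrgprb4*, which marks neurons that respond to stroking of the skin, had 0, 2, 7 and 1 UMIs, so that only Male-CCI passed the limit of 3 UMIs. There only 2.5% of the 40 members had a UMI of it, with 0.714 CP10K at most, so the sum does not describe these members as a group. The genes of this family are closely related in sequence, so that reads could be split between members of the family.

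**Figure D2:**
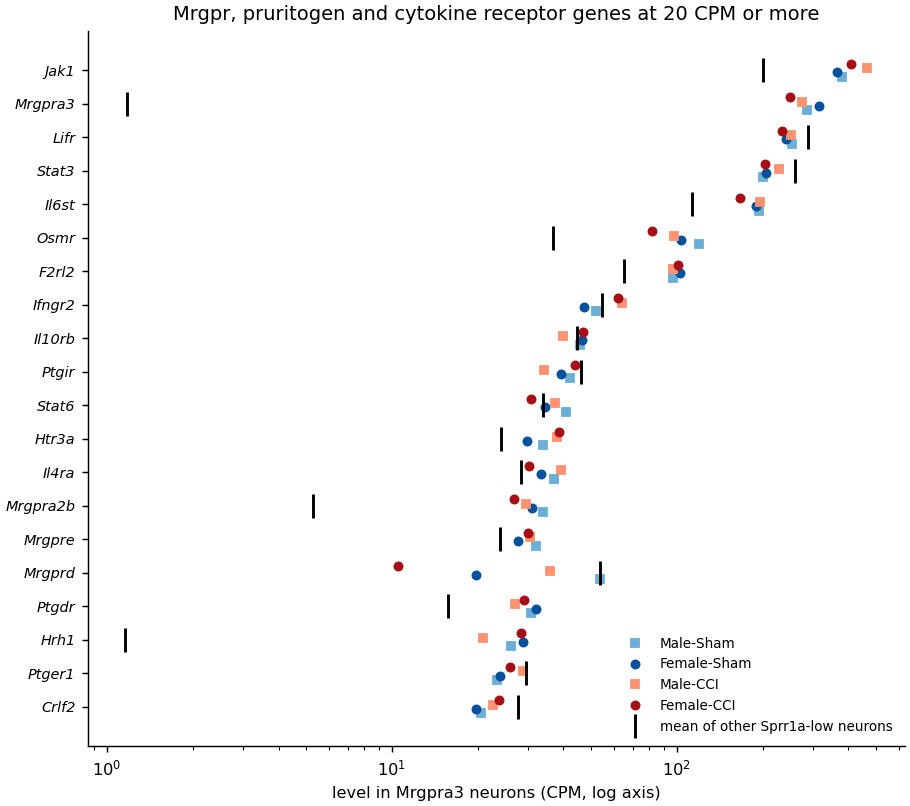
CPM of 20 receptor and signalling genes with at least 20 CPM in *Mrgpra3* neurons, 1 point per library, with a bar at the mean of the other neurons within the *Sprr1a* limit. *Hrh1* and *Mrgpra2b* lay well above the bar (means of 26.0 against 1.16 and 30.3 against 5.30 CPM), while *Lifr* and *Stat3* lay below it (245 against 289 and 210 against 260 CPM).

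Receptors for cytokines linked to itch were more widely shared. *Osmr*, the receptor subunit for oncostatin M and, together with *Il31ra*, for IL-31, stood at 120, 103, 97.9 and 81.7 CPM in members, 36.6 CPM in the other neurons and 319 CPM in *Nppb* neurons. *Il31ra* itself was at 1.30, 1.16, 2.18 and 3.5 CPM. *Jak1*, a kinase that these receptors use, averaged 405 CPM in members, 201 CPM in the other neurons and 1787 CPM in *Nppb* neurons. The serotonin-gated channel gene *Htr3a* averaged 35.0 CPM in members and 1.45 and 1.46 CPM in *Mrgprd* and *Nppb* neurons. All other neurons within the *Sprr1a* limit averaged 24.1 CPM of it, a smaller distance from members. *Ptgdr*, a prostaglandin D2 receptor gene, averaged 29.8 CPM in members, 50.8 CPM in *Mrgprd* and 0.844 CPM in *Nppb* neurons. *F2rl2*, a protease-activated receptor gene, averaged 99.4 CPM against 65.1 CPM in the other neurons, a smaller distance.

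Among the genes of transduction, *Trpv1*, the heat- and capsaicin-gated channel, stood at 111, 110, 99.5 and 109 CPM in members, 13.5 CPM in *Mrgprd* neurons and 182 CPM in *Nppb* neurons. All other neurons within the *Sprr1a* limit averaged 143 CPM of *Trpv1*, above the mean of 107 CPM in members. *Trpa1*, the irritant-gated channel, was at 10.6, 10.9, 16.8 and 15.9 CPM in members against 77.3 CPM in *Mrgprd* neurons. The peptide gene *Calca* (CGRP) stood at 11784, 11264, 11592 and 11982 CPM in members and at means of 1967 and 1079 CPM in *Mrgprd* and *Nppb* neurons. High *Calca* was not particular to members, as all other neurons within the *Sprr1a* limit averaged 8278 CPM. *Tac1*, which encodes substance P, stood at 329, 345, 256 and 388 CPM in members, at means of 265 and 546 CPM in *Mrgprd* and *Nppb* neurons and at 3029 CPM in all other neurons within the *Sprr1a* limit, and *Grp* had 1 UMI in all members together. *Kcnk18*, which encodes the potassium channel TRESK, averaged 58.9 CPM against 13.5 CPM elsewhere, and *Scn11a* (Nav1.9) 405 CPM against 148 CPM. Neither gene was particular to members, as *Mrgprd* neurons averaged 52.4 CPM of *Kcnk18* and 365 CPM of *Scn11a*. *Runx1*, a transcription factor of nonpeptidergic neurons, averaged 51.2 CPM in members and 277 CPM in *Mrgprd* neurons.

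The members were not uniform. Ranked by the lowest variance of Pearson residuals over the 4 libraries, the most variable genes were *Apoe* and *Fabp7*, both satellite glia genes. *Apoe* had medians of 0.195, 0.259, 0.154 and 0.283 CP10K and 90th percentiles of 20.4, 30.3, 18.4 and 21.2 CP10K, and *Fabp7* had medians of 0 and 90th percentiles of 7.6, 9.64, 4.68 and 8.26 CP10K. *Ifi27l2a*, an interferon-inducible gene, had a median of 1.23, 1.42, 0.417 and 0.452 CP10K per cell, but a 90th percentile of 13.5, 12.4, 4.48 and 7.91 CP10K, and its highest cell reached 59.1 CP10K. *Tac1* had medians of 1.26, 1.47, 0.659 and 0.971 CP10K and 90th percentiles of 6.62, 10.5, 7.13 and 13 CP10K, so a minority of cells carried most of its UMIs. *Calca* varied much less, from 70.9 CP10K at the 10th to 155 CP10K at the 90th percentile in Male-Sham, and every member had a UMI of it. Per-cell *Mrgpra3* had medians of 2.51, 2.69, 2.13 and 2.19 CP10K.

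*Mrgpra3* neurons made up a smaller share of neurons in CCI than in sham. They were 4.34% (exact 95% interval 3.69 to 5.07) of the neurons in Male-Sham, 2.99% (2.57 to 3.46) in Female-Sham, 1.23% (0.876 to 1.68) in Male-CCI and 1.06% (0.764 to 1.43) in Female-CCI, a mean difference of -2.52 percentage points. These intervals cover counting error only. With 2 libraries a side no exact permutation test can go below p = 0.333. Over the same libraries the share of neurons past the *Sprr1a* limit was 2.04%, 3.85%, 55.1% and 53.1%, and such cells could not be members by the rule. Of the neurons within the limit, members were 4.43%, 3.11%, 2.74% and 2.25%, and the 2 CCI libraries still lay below both sham libraries, by a smaller distance. *Mrgprd* neurons made up 9.60%, 4.26%, 3.19% and 1.56% of neurons and *Nppb* neurons 3.36%, 2.26%, 1.20% and 1.01%, so their shares of all neurons were also lower in CCI. Of the neurons within the *Sprr1a* limit they were 9.80%, 4.43%, 7.10% and 3.33% (*Mrgprd*) and 3.43%, 2.35%, 2.67% and 2.15% (*Nppb*), and there the CCI libraries did not both lie below both sham libraries. Without any limit on *Sprr1a* the difference for *Mrgpra3* cells was -2.44 points, and with a limit of 3 in place of 1 CP10K of *Mrgpra3* it was -1.18 points. All of these shares still require *Mrgpra3*. The paper proposes that injured neurons of most clusters may have lost their subtype markers. A cell that had lost *Mrgpra3* could not be counted in any of these shares, and the part of such loss was not tested.

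**Figure D3:**
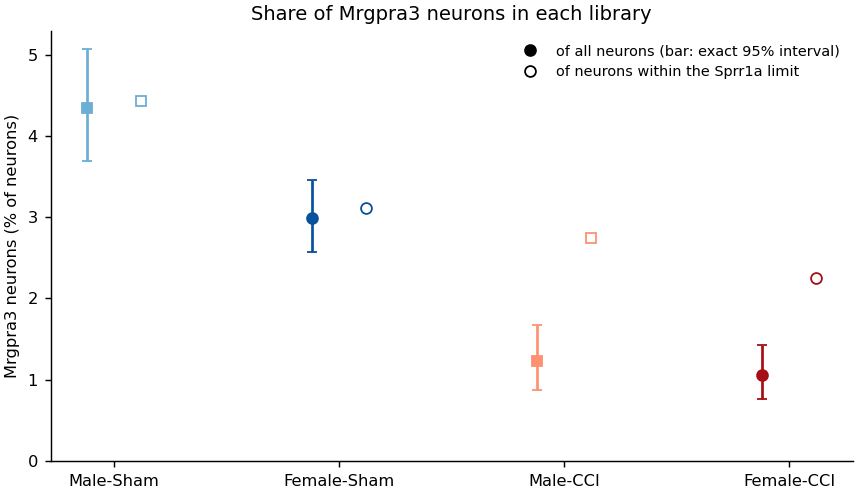
Share of *Mrgpra3* neurons in each library with exact 95% intervals, as a percentage of all neurons (filled) and of the neurons within the *Sprr1a* limit (open). The CCI libraries stood at 1.23% and 1.06% of all neurons, below 4.34% and 2.99% in sham, and at 2.74% and 2.25% of the neurons within the limit, against 4.43% and 3.11%.

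Although no member passed the *Sprr1a* limit, traces of *Sprr1a* followed the surgery. At least 1 UMI of it was found in 4.43%, 6.38%, 85.0% and 79.1% of members, with a median of 0.212 and 0.188 CP10K in the CCI libraries and 0 in the sham libraries. *Mrgprd* neurons chosen with the same limit had a UMI in 3.89%, 3.57%, 70.3% and 58.1%, so like shares were seen in another class of neurons. Whether these UMIs came from the cell or from free RNA of the suspension was not tested. Only 6 and 9 members of the CCI libraries had no *Sprr1a* UMI at all, and the results with those cells alone are given beside the comparison they touch.

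CCI and sham members were compared with the quasi-likelihood test of edgeR, its p-values adjusted after Benjamini and Hochberg, and a gene was called at an adjusted p below 0.05 and an absolute log2 fold change above 0.5. Of 11255 genes tested, 182 passed (1.62%). In CCI 98 rose (0.871%) and 84 fell (0.746%), while the median change over all genes was -0.0020. *Vgf*, *Bdnf*, *Sox11*, *Alkal2* and *Flrt3* were among those that rose, the immediate early genes *Fos*, *Fosb* and *Junb* fell, and *Ifi27l2a* fell by 1.18 on the log2 scale. Of 5 Mas-related and 19 other pruritogen receptor genes tested 0 were called, which in lists of this size does not set them apart from the 1.62% over all genes. DESeq2 gave an adjusted p to 78 of the 182 and called 58 of these, and over all genes it gave no adjusted p for 7201 of the 11255. Without Female-Sham 119 genes were called, and among the members without a *Sprr1a* UMI, with 6 and 9 CCI cells, 25 genes were called, of which 10 were among the 182.

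*Vgf*, which encodes a secreted peptide precursor, stood at 32.8 and 37.0 CPM in sham and 74.3 and 78.2 CPM in CCI (log2 fold change 1.11, SE 0.11, adjusted p = 1.38e-05). *Bdnf*, the brain-derived neurotrophic factor, stood at 43.7 and 52.7 CPM in sham and 84.2 and 110 CPM in CCI (0.99, SE 0.13, adjusted p = 0.000405). *Alkal2*, a ligand of the receptor kinase ALK, stood at 44.8 and 39.7 CPM in sham and 73.7 and 103 CPM in CCI (1.04, SE 0.14, adjusted p = 0.000686). For these 3 secreted factors both CCI libraries lay above both sham libraries. *Ppm1j*, a protein phosphatase gene, stood at 28.5 and 19.6 CPM in sham and 53.5 and 63.8 CPM in CCI (1.26, SE 0.16, adjusted p = 0.00105). The predicted gene *Gm8797*, for which no function is given here, had the largest increase with a mean of at least 20 CPM, from 13 and 11.7 CPM in sham to 60.9 and 54.8 CPM in CCI (2.22, SE 0.13, adjusted p = 2.43e-08). The other neurons within the *Sprr1a* limit had 11.1, 10.1, 57.1 and 48.9 CPM of it. All of these but *Gm8797* missed the call in the members without a *Sprr1a* UMI, where the log2 change of *Vgf* was 0.21 (adjusted p = 0.853), that of *Alkal2* 0.60 (0.306), that of *Ppm1j* 0.10 (0.96) and that of *Bdnf* -0.12 (0.918). With at least 3 CP10K of *Mrgpra3* the change of *Alkal2* was 0.45 (adjusted p = 0.245).

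**Figure D4:**
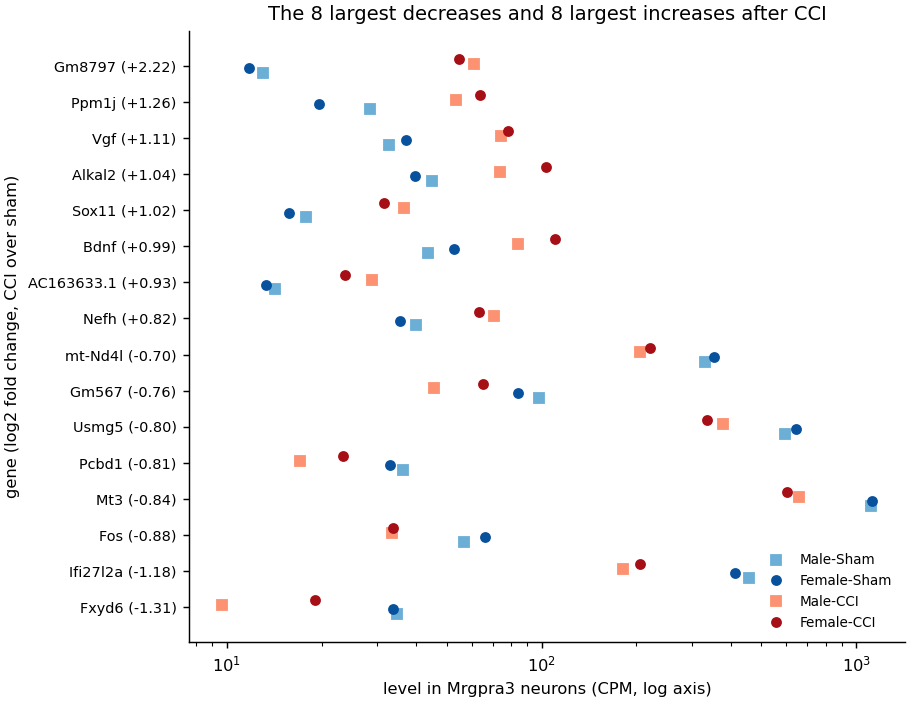
CPM (log axis) of the 8 largest decreases and 8 largest increases among called genes with a mean of at least 20 CPM, 1 point per library. In all 16 genes both CCI libraries lay on the same side of both sham libraries, from *Gm8797* (log2 fold change 2.22) to *Fxyd6* (-1.31).

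Several genes known from injured and regenerating neurons rose. Of 35 such genes tested, 5 rose and 0 fell, beside 0.871% and 0.746% of all genes tested. At an unadjusted p below 0.05 0 were lower, and 0 by DESeq2. DESeq2 called 1 of the 5 (*Gap43*) and gave the other 4 no adjusted p. A positive change was found in 32, and the median change was 0.28. *Sox11*, a transcription factor of axon growth, stood at 17.8 and 15.8 CPM in sham and 36.7 and 31.5 CPM in CCI (1.02, SE 0.14, adjusted p = 0.000525). *Flrt3*, an adhesion protein gene, stood at 3.40 and 3.91 CPM in sham and 14.0 and 12.8 CPM in CCI (1.86, SE 0.24, adjusted p = 0.000266). *Gap43*, the growth cone protein, stood at 621 and 716 CPM in sham and 939 and 970 CPM in CCI (0.50, SE 0.08, adjusted p = 0.00137). Its change lay at the fold limit, and without Male-Sham it was 0.39 (adjusted p = 0.0399) and without Female-CCI 0.47 (0.0123), both below the limit. The calls of *Kif22* (0.77, adjusted p = 0.0198) and *Sdc1* (0.80, adjusted p = 0.0173) were also lost without single libraries, at adjusted p = 0.116 for *Kif22* without Male-Sham and 0.136 without Female-CCI, and at 0.0651, 0.0599 and 0.104 for *Sdc1* without Male-Sham, Female-Sham and Male-CCI. *Atf3*, a regulator of the injury response, stood at 42.7 and 38.0 CPM in sham and 34.8 and 67.7 CPM in CCI (0.30, SE 0.36, adjusted p = 0.767), and *Gal*, the galanin gene, at 22.7 and 19.7 CPM in sham and 37.3 and 80.9 CPM in CCI (1.43, SE 0.51, adjusted p = 0.37). In the members without a *Sprr1a* UMI the changes of *Flrt3*, *Sdc1* and *Sox11* were -0.40, -0.57 and 0.68, and none was called. With at least 3 CP10K of *Mrgpra3*, which left 15 and 16 CCI cells, those of *Flrt3* and *Sox11* were 0.77 (adjusted p = 0.672) and 0.62 (0.366). Removing the 15% of cells with the highest doublet scores left *Flrt3* at 0.91 (adjusted p = 0.2).

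Genes of the cytoskeleton gave 3 increases and 0 decreases among 39 tested, beside 0.871% and 0.746% of all genes. At an unadjusted p below 0.05 3 were lower, and 0 were lower by DESeq2. *Nefh*, the heavy neurofilament chain, stood at 39.9 and 35.4 CPM in sham and 70.6 and 63.4 CPM in CCI (0.82, SE 0.11, adjusted p = 0.000266), and *Nefm*, the medium chain, at 443 and 397 CPM in sham and 635 and 607 CPM in CCI (0.55, SE 0.07, adjusted p = 0.000353). The third was *Gap43*. Without Female-Sham the change of *Nefm* was 0.48, below the fold limit. Of 32 synaptic release genes, *Nrxn3*, a presynaptic adhesion molecule, was the 1 call, with 29.0 and 30.8 CPM in sham and 46.0 and 47.8 CPM in CCI (0.64, adjusted p = 0.0045, and 0.0539 without Male-Sham). In the members without a *Sprr1a* UMI its change was -0.53 and that of *Nefh* 0.26 (adjusted p = 0.754), neither of them called.

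Of 17 immediate early genes tested, 0 rose (0 at an unadjusted p below 0.05, and 0 by DESeq2) and 3 fell. Of all genes 0.871% rose and 0.746% fell. The median change of the 17 was -0.33. *Fos* stood at 56.9 and 66.1 CPM in sham and 33.6 and 33.8 CPM in CCI (-0.88, SE 0.12, adjusted p = 0.000405). *Junb* stood at 94.4 and 89.4 CPM in sham and 58.1 and 70.4 CPM in CCI (-0.54, SE 0.11, adjusted p = 0.00843), and *Fosb* at 8.20 and 8.25 CPM in sham and 3.73 and 2.33 CPM in CCI (-1.41, SE 0.31, adjusted p = 0.0148). Both sham libraries were above both CCI libraries for these 3 transcription factors. The call of *Junb* was lost without Male-Sham (adjusted p = 0.058) or Male-CCI (0.0829), and that of *Fosb* without Male-Sham (0.0633) or Female-CCI (0.0953). In the members without a *Sprr1a* UMI *Fos* had a change of -1.44 (adjusted p = 0.0683).

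The interferon-inducible gene *Ifi27l2a* stood at 456 and 413 CPM in sham and 182 and 205 CPM in CCI (-1.18, SE 0.09, adjusted p = 3.98e-07). As described above, a minority of members held most of its UMIs, and with the stricter limit of 5% on mitochondrial UMIs its change was -1.81 with an adjusted p of 0.296. In the members without a *Sprr1a* UMI it was -0.19 (adjusted p = 0.969), and with at least 3 CP10K of *Mrgpra3* it was -1.99 (0.476). Over 26 tested interferon and MHC class I genes, which do not include it, 2 rose and 0 fell, beside 0.871% and 0.746% of all genes. The median change was -0.012, while 2 were lower at an unadjusted p below 0.05. DESeq2 called 0 and gave the 2 genes that rose no adjusted p. *Usp18*, which removes ISG15 from proteins, had 0.5 and 0.741 CPM in sham and 2.80 and 5.06 CPM in CCI (2.58, SE 0.55, adjusted p = 0.0128), and *Gbp7*, a guanylate-binding protein gene, 6.2 and 7.51 CPM in sham and 11.2 and 15.6 CPM in CCI (0.93, SE 0.23, adjusted p = 0.03). The call of *Usp18* was lost without Male-Sham, Female-Sham or Female-CCI (adjusted p = 0.252, 0.168 and 0.144), and that of *Gbp7* without Male-Sham or Female-CCI (0.17 and 0.22).

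Ion channel genes moved in both directions. Of 41 potassium channel genes tested, 3 rose and 3 fell, beside 0.871% and 0.746% of all genes, with a median change of 0.0069. DESeq2 called *Kcnb2* and *Kcnmb1* and gave the other 4 no adjusted p. *Kcnq3*, a subunit of the M-current channel, stood at 1.6 and 3.91 CPM in sham and 11.8 and 10.5 CPM in CCI (2.02, SE 0.34, adjusted p = 0.00308). *Kcnb2*, a delayed rectifier gene, stood at 183 and 181 CPM in sham and 265 and 256 CPM in CCI (0.51, SE 0.08, adjusted p = 0.00114), and its change without Male-CCI was 0.49, just below the fold limit. *Kcnmb1*, an accessory subunit of the BK channel and a cluster marker of the study, fell from 235 and 215 CPM in sham to 171 and 141 CPM in CCI (-0.53, SE 0.09, adjusted p = 0.00333), with changes of -0.48 without Male-Sham and -0.41 without Female-CCI. The remaining 3 potassium channel calls were less stable. *Kcnk10* (0.83, adjusted p = 0.0405) was lost when any of the 4 libraries was left out, at adjusted p = 0.13 to 0.15. *Kcnn2* (-0.65, adjusted p = 0.0316) and *Kcnk2* (-2.43, adjusted p = 0.0479) were lost without Male-Sham (0.161 and 0.275), Female-Sham (0.0553 and 0.171) or Male-CCI (0.358 and 0.344). Of 12 sodium channel genes *Scn8a* (Nav1.6) was called, with 11.2 and 10.5 CPM in sham and 21.8 and 18.7 CPM in CCI (0.89, SE 0.18, adjusted p = 0.00765, and 0.0857 without Male-CCI). By edgeR and by DESeq2, none of 11 calcium channel genes, 17 HCN, P2X, acid-sensing and mechanosensitive channel genes and 11 AMPA, kainate and GABA-A receptor genes passed both limits, and at an unadjusted p below 0.05 edgeR had 3 higher and 0 lower, 3 higher and 2 lower, and 3 higher and 1 lower among them. *Kcnq3* had a change of -0.070 in the members without a *Sprr1a* UMI.

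No itch receptor gene was called. The genes that could be tested were 5 of 20 Mas-related receptor genes, 19 of 46 other pruritogen receptor genes and 19 of 27 genes of itch cytokine signalling. Of these 0 were called in either direction by edgeR or DESeq2, beside 1.62% of all genes by edgeR. At that share lists of this size could hold 0 calls, so the count does not set them apart. Their median changes were -0.21, -0.090 and 0.024. At an unadjusted p below 0.05 the Mas-related receptors held 0 genes, the pruritogen receptors held 1 higher and 0 lower gene and the cytokine genes 3 higher and 1 lower. *Hrh1* had a change of -0.19 (SE 0.16, adjusted p = 0.583) and *Mrgpra2b* had -0.21 (SE 0.13, adjusted p = 0.429). *Osmr* had -0.32 (SE 0.10, adjusted p = 0.0968), with both CCI libraries below both sham libraries, and *Ifngr2*, an interferon gamma receptor subunit, 0.34 (SE 0.10, adjusted p = 0.0664). Of 37 genes of Gq, phospholipase C and TRP transduction 0 were called by edgeR or DESeq2 (9 higher and 6 lower at an unadjusted p below 0.05), although 4 passed the adjusted p alone. These were *Gng3*, a G protein gamma subunit (-0.34, adjusted p = 0.00771), *Plcb3*, a phospholipase C (-0.38, adjusted p = 0.0324), *Calm2*, a calmodulin (-0.28, adjusted p = 0.0401), and *Prkcd*, a protein kinase C (0.30, adjusted p = 0.0423).

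The 3 marker genes outside the rule were not called. *Gda* had a change of -0.29 (SE 0.09, adjusted p = 0.0838), *Smyd3* had -0.09 (SE 0.08, adjusted p = 0.611) and *Etv1* -0.14 (SE 0.08, adjusted p = 0.4). Of the 49 cluster markers tested, 8 were higher at an unadjusted p below 0.05, DESeq2 called 0 higher, and the median was -0.083. By edgeR 0 rose and 3 fell, beside 0.871% and 0.746% of all genes. Besides *Kcnmb1* these were *Ovol2*, a zinc finger transcription factor gene (55.6 and 60.9 CPM in sham, 39.2 and 43.9 CPM in CCI, -0.51, adjusted p = 0.016), and *Gm567* (98.4 and 84.4 CPM in sham, 45.4 and 64.9 CPM in CCI, -0.76, adjusted p = 0.00566). *Ovol2* was lost without Female-Sham (adjusted p = 0.194) or Male-CCI (0.143), and *Gm567* had a change of -0.49 without Male-CCI. Since the study chose the list on these libraries, its direction is not independent evidence.

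The remaining neuronal lists held between 0 and 3 called genes each, where 1.62% of all genes tested were called. Of 11 neuropeptide and transporter genes *Bdnf* was the 1 call, and *Calca* had a change of 0.02 (SE 0.07, adjusted p = 0.915). Of 17 neurotrophic and guidance receptor genes *Plxna4*, a semaphorin receptor gene, rose (27.5 and 29.9 CPM in sham, 44.4 and 39.7 CPM in CCI, 0.54, adjusted p = 0.0168) and *Gfra2* fell. The call of *Plxna4* was lost without Male-Sham (adjusted p = 0.162), Female-Sham (0.0553) or Male-CCI (0.142). Of 12 inhibitory receptor genes 0 were called by edgeR or DESeq2, with 1 higher and 1 lower at an unadjusted p below 0.05. Of 25 transcription factors of sensory neurons *Nfib* rose (18.1 and 22.5 CPM in sham, 32.3 and 30.7 CPM in CCI, 0.63, adjusted p = 0.0244), while *Hopx* and *Ovol2* fell. The call of *Nfib* was lost without Male-Sham (adjusted p = 0.232), Male-CCI (0.122) or Female-CCI (0.0643). Of 31 stress response genes *Ddit3* rose (0.50, adjusted p = 0.0152), and the heat shock genes *Hspa1a* (-0.56, adjusted p = 0.0369) and *Hspa1b* (-0.57, adjusted p = 0.0365) fell. These 2 heat shock genes are near-identical copies, so reads could be split between them, and both calls were lost without Male-Sham (adjusted p = 0.2 and 0.161), Female-Sham (0.0781 and 0.138) or Male-CCI (0.419 and 0.423). *Ddit3* was lost without Male-Sham (adjusted p = 0.171), Female-Sham (0.0534) or Female-CCI (0.09).

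Some of the largest decreases belonged to short and mitochondrial transcripts and were shared with other neurons. *Mt3*, a metallothionein gene, stood at 1114 and 1123 CPM in sham and 659 and 601 CPM in CCI (-0.84, SE 0.07, adjusted p = 2.67e-06), and *Usmg5*, a small subunit of the mitochondrial ATP synthase, at 593 and 645 CPM in sham and 379 and 337 CPM in CCI (-0.80, SE 0.08, adjusted p = 1.38e-05). In the other neurons within the *Sprr1a* limit *Mt3* stood at 1505, 1593, 982 and 810 CPM and *Usmg5* at 729, 770, 495 and 406 CPM. *mt-Nd2*, *mt-Nd1* and *mt-Nd3*, subunits of complex I, rose by 0.68, 0.63 and 0.71, whereas *mt-Nd4l* and *mt-Atp8* fell by 0.70 and 0.57. Both of the latter overlap a neighbouring gene of the mitochondrial genome, so their counts are uncertain. With the limit on mitochondrial UMIs at 5% in place of 10%, *mt-Nd1* and *mt-Nd3* had changes of 0.44 and 0.46, below the fold limit. *mt-Atp8* had a change of -0.46 without Female-Sham and -0.47 without Male-CCI.

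Of 76 nuclear genes of oxidative phosphorylation tested, 1 was called (*Ndufa3*, 186 and 222 CPM in sham, 130 and 128 CPM in CCI, -0.68, adjusted p = 0.000655), 24 were lower and 1 higher at an adjusted p below 0.05 whatever the fold, and the median was -0.15. Their summed level was 41773, 43827, 37078 and 38204 CPM. In the other neurons the sum was 48093 and 49583 CPM in sham and 43316 and 42167 CPM in CCI. Of 77 ribosomal protein genes 5 rose and 2 fell, beside 0.871% and 0.746% of all genes. *Rpl41* fell by 0.60, and since many pseudogenes resemble ribosomal protein genes, their counts are uncertain. The called genes that fell had a median transcript length of 912 bases and those that rose 1492 bases, against 1408 bases for all genes tested, and the part of length in these calls was not tested.

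A part of the decreases went with markers of C-low-threshold mechanoreceptors (cLTMRs), another class of unmyelinated neurons. Over the 8 marker genes of that class, *Th* and *Gfra2* among them, the members held 295, 203, 17 and 11 UMIs (summed levels of 29.5, 21.5, 5.28 and 4.28 CPM), with 0, 0, 3 and 5 of the genes at 0. *Gfra2* was not particular to that class, as *Mrgprd* neurons had a mean of 323 CPM and all other neurons within the *Sprr1a* limit 109 CPM. The source of these UMIs was not tested. In sham, 10 members of Male-Sham and 5 of Female-Sham with at least 5 UMIs of the 8 genes held 224 and 119 of them, and 7 and 5 of these cells were among the 15% with the highest doublet scores. No CCI member had as many. *Gfra2* stood at 11.8 and 7.93 CPM in sham and 1.55 and 1.94 CPM in CCI (-2.52, SE 0.39, adjusted p = 0.00122), and without those 15 cells its change was -1.11 (adjusted p = 0.195). *Hopx*, which encodes a homeodomain-only protein, stood at 24.3 and 30.3 CPM in sham and 17.4 and 16.7 CPM in CCI (-0.68, adjusted p = 0.0288), and without them at a change of -0.22 (adjusted p = 0.55). Neither call held once these cells were left out, and *Hopx* was also lost without Female-Sham (adjusted p = 0.234), Male-CCI (0.118) or Female-CCI (0.0973). *C1ql4* had 71 UMIs in sham and 0 in CCI, at least 7.04-fold lower against 3 UMIs over the CCI libraries, and *Th* had 62 UMIs against 1, a ratio of 18.4 (exact 95% interval 3.19 to 740, which covers counting error only and treats UMIs of the same cell as independent). Over all genes 165 were called without these cells, 153 of them among the 182. *Gap43* and the stress response gene *Ddit3* then had changes of 0.48 and 0.49, below the fold limit.

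Markers of non-neuronal cells were also summed. The 18 satellite glia genes summed to 1152, 1509, 1074 and 1216 CPM, with 0 called by edgeR or DESeq2 of 17 tested (0 higher and 1 lower at an unadjusted p below 0.05) and a median change of -0.16, and all 18 had UMIs in every library. The 15 immune genes summed to 9.89, 14.7, 4.97 and 10.1 CPM, with 10, 3, 10 and 9 genes at 0. Fibroblast, vascular and Schwann cell genes summed to 16.2, 22.6, 16.8 and 19.8 CPM.

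The change after CCI was then compared with that of *Mrgprd* neurons, a class of nonpeptidergic nociceptors (749 cells). They had at least 3 CP10K of *Mrgprd*, under 1 CP10K of *Mrgpra3* and the same cell filters and limits on *Nppb* and *Sprr1a*. They also had more *Tubb3* than *Fabp7*, a limit not set for members. It was met by 151, 177, 39 and 42 of the 158, 188, 40 and 43 members, so the 2 sides were not filtered alike. Of 12205 genes 29 differed (0.238%), 9 with a higher and 20 with a lower log2 change in *Mrgpra3* neurons, sign included. *Ppm1j* had the smallest adjusted p of the 29. It rose in *Mrgpra3* neurons as above, whereas *Mrgprd* neurons had 197 and 168 CPM in sham and 172 and 165 CPM in CCI, a difference in log2 change of 1.38 (SE 0.14, adjusted p = 1.61e-07). *Flrt3* stood at 22.5 and 19.9 CPM in sham and 16.3 and 13.8 CPM in CCI in *Mrgprd* neurons, a difference of 2.36 (SE 0.28, adjusted p = 3.13e-06, and 1.41 at 0.204 once the highest doublet scores were removed). *Bst2*, the interferon-inducible tetherin gene, stood at 64.8 and 69.6 CPM in sham and 39.8 and 62.2 CPM in CCI in *Mrgpra3* neurons, and at 12.7 and 13.7 CPM in sham and 23.5 and 25.3 CPM in CCI in *Mrgprd* neurons (difference -1.35, SE 0.17, adjusted p = 9.76e-06, and 0.131 without Male-CCI). Within members both CCI values lay below both sham values without a call (adjusted p = 0.176).

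*Osmr* was among the other genes that differed from *Mrgprd* neurons. It differed by -0.74 (SE 0.14, adjusted p = 0.0079), as *Mrgprd* neurons had 27.0 and 29.9 CPM in sham and 38.2 and 37.7 CPM in CCI. *Etv1* differed by -0.59 (SE 0.12, adjusted p = 0.0157), with 26.8 and 22.4 CPM in sham and 38.4 and 29.4 CPM in CCI in *Mrgprd* neurons. In both genes the CCI values of *Mrgprd* neurons lay above their sham values. *Osmr* was lost without Male-Sham (adjusted p = 0.413), Male-CCI (0.263) or Female-CCI (0.14), *Etv1* without Female-Sham (0.328) or Male-CCI (0.722), and with *Mrgprd* neurons taken from 1 CP10K upward the difference for *Etv1* was 0.12. *Agtr1b*, an angiotensin receptor gene, differed by -1.11, *Ifi35*, an interferon-induced gene, by -1.01 and *Nfkbia*, the inhibitor of NF-kB, by -0.79. *Unc119*, a lipid-binding trafficking protein gene, differed by 0.89 and *Aqp1*, a water channel gene, by 0.64. These 5 calls were lost without Male-Sham, Male-CCI or Female-CCI, at adjusted p between 0.056 and 0.752. The number of genes that differed depended on the libraries, with 9 without Male-CCI, 18 without Male-Sham, 31 without Female-CCI and 54 without Female-Sham, and 15 once the highest doublet scores were removed.

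All other neurons within the *Sprr1a* limit, 11978 cells of many classes, also had more *Tubb3* than *Fabp7*. Against them 85 of 15391 genes differed in their change (0.552%), 28 upward and 57 downward. *Ppm1j* again differed upward, as the other neurons had 97.8, 82.3, 81.0 and 67.9 CPM (difference 1.53, SE 0.14, adjusted p = 1.32e-08). *Unc119* stood at 24.2 and 28.6 CPM in sham and 35.4 and 37.7 CPM in CCI in members, and at 84.7, 74.5, 52.3 and 52.7 CPM elsewhere (1.05, SE 0.14, adjusted p = 1.22e-07). Without the sham members that held cLTMR UMIs its difference was 1.23 with an adjusted p of 0.628. *Cmbl*, a hydrolase gene, rose from 41.4 and 47.1 CPM in sham to 62.8 and 66.5 CPM in CCI in members and stood at 38.7, 40.4, 35.4 and 36.6 CPM elsewhere (0.66, SE 0.11, adjusted p = 1.29e-05). Within members its own call (0.53, adjusted p = 0.00843) was lost without Male-Sham (0.137) or Female-CCI (0.0517). *Nefh*, *Scn8a* and *Kcnq3* also differed upward, by 0.55, 0.79 and 2.08. *Nefh* was lost without Male-Sham (adjusted p = 0.143) or Female-CCI (0.0874), *Scn8a* without Male-Sham (0.39), Male-CCI (0.245) or Female-CCI (0.0985), and *Kcnq3* without Male-CCI (0.396) or Female-CCI (0.434). In all, 50 genes differed without Male-Sham, 115 without Female-Sham, 36 without Male-CCI and 48 without Female-CCI.

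Of 51 injury-related genes in the data, not all of them tested, 3 differed (*Plaur*, *Gadd45a* and *Itga7*), beside 0.552% of all genes. Each had the lower log2 change in *Mrgpra3* neurons. *Plaur*, the urokinase receptor gene, stood at 21.3 and 20.5 CPM in sham and 21.4 and 24.1 CPM in CCI in members, and at 3.98 and 5.43 CPM in sham and 12 and 12.8 CPM in CCI in the other neurons (difference -1.31, SE 0.18, adjusted p = 1.33e-07). Members thus had the higher level of it in sham. *Phlda1* stood at 18.6, 28.6, 18.7 and 17.1 CPM in members and at 58.1, 87.2, 95.3 and 114 CPM elsewhere (-0.92, SE 0.15, adjusted p = 1.29e-05). *Gadd45a*, a DNA damage response gene, differed by -0.74 (SE 0.12, adjusted p = 1.29e-05, and 0.0538 without Female-CCI), and *Itga7*, an integrin gene, by -0.92. Of 33 interferon and MHC class I genes in the data, *Ifit3*, *Ifit3b* and *Bst2* differed, by -1.75, -1.42 and -0.83. *Ifit3* stood at 14.7, 21.9, 14.9 and 22.2 CPM in members and at 4.48, 5.44, 17.0 and 15.9 CPM elsewhere. *Ifit3b* stood at 5.80, 8.67, 6.53 and 9.33 CPM in members and at 2.04, 1.68, 5.54 and 5.04 CPM elsewhere. For *Ifit3* and *Ifit3b* the other neurons thus had the higher level in CCI, while members had no fall. The calls of *Itga7* and *Ifit3b* were lost without single libraries, *Itga7* without Male-Sham, Male-CCI or Female-CCI (adjusted p = 0.0592, 0.109 and 0.11) and *Ifit3b* without Female-Sham, Male-CCI or Female-CCI (0.417, 0.356 and 0.0518). *Fxyd6*, a regulator of the sodium pump, fell from 34.8 and 33.6 CPM in sham to 9.64 and 19.1 CPM in CCI in members (-1.31, SE 0.20, adjusted p = 0.000974), against 192, 210, 172 and 200 CPM elsewhere (difference -1.20, SE 0.16, adjusted p = 1.22e-07). With the 15% highest doublet scores removed its change in members was -0.79 (adjusted p = 0.0537) and the difference -0.59 (adjusted p = 0.1). *Fos* differed by -0.61 (adjusted p = 0.000262, and 0.0889 without Male-CCI), as the other neurons stood at 135, 172, 132 and 120 CPM. The other neurons hold several classes whose shares differed between libraries, and the part of those shares in these differences was not tested.

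**Figure D5:**
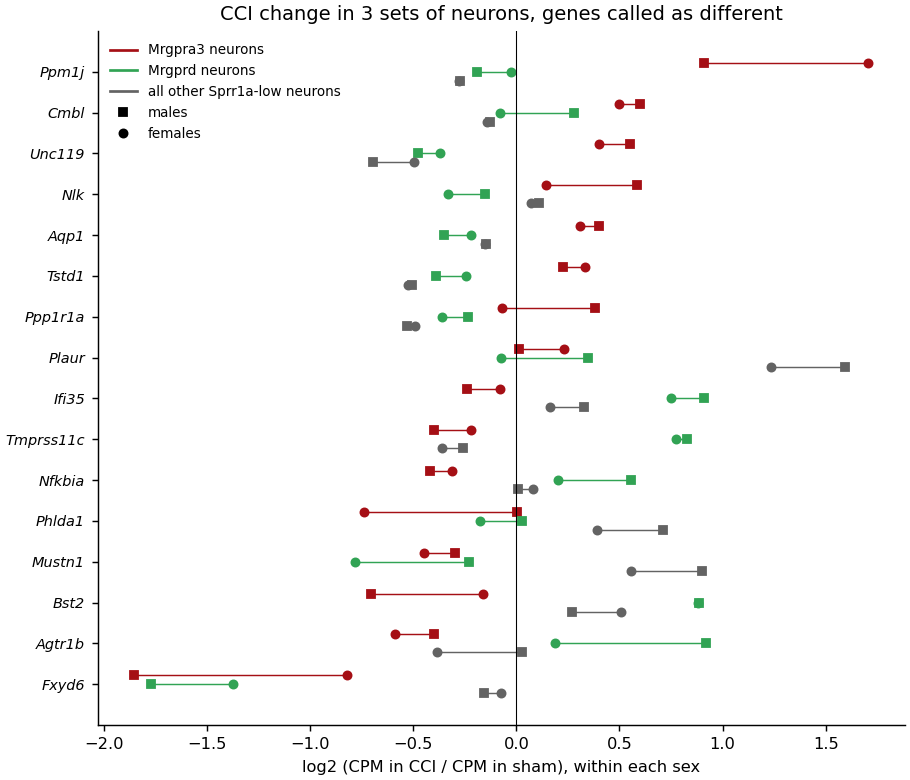
Log2 ratio of CCI to sham for 16 genes among those with the largest called differences at a mean of at least 20 CPM, with 1 point per sex, in *Mrgpra3* neurons, *Mrgprd* neurons and all other neurons within the *Sprr1a* limit. *Ppm1j* rose in *Mrgpra3* neurons and differed from both other sets (by 1.38 and 1.53), and *Plaur* had the smaller ratio in members than in all other neurons (difference -1.31).

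Female and male members differed in few genes. With surgery as a term, 22 of 11255 genes were called (0.195%), 16 higher and 6 lower in females, and leaving out a library was not possible for this test. *Xist* stood at 0, 201, 0 and 192 CPM, which follows the sex of the mice. *Mrgprd* stood at 53.7, 19.8, 35.7 and 10.5 CPM in members (female over male -1.49, SE 0.13, adjusted p = 3.62e-08), lower in the female library of each surgery. In the same libraries *Mrgprd* neurons made up 9.60%, 4.26%, 3.19% and 1.56% of neurons, also lower in the female library of each surgery, while neurons with at least 20 CP10K of *Nefh* held 0.810, 3.02, 0.195 and 0.367 CPM of *Mrgprd*. The sex test was also run without the highest doublet scores, and with under 3 CP10K of *Mrgprd* and *Fabp7*. The values of *Mrgprd* and *Fabp7* in those runs are not reported here. How much of the *Mrgprd* counts of members came from free RNA or doublets was not tested. *Fabp7* stood at 135, 223, 122 and 217 CPM (0.79, SE 0.07, adjusted p = 1.68e-07), beside summed satellite glia levels that were also higher in the female library of each surgery. *Eif2s3x*, an X-linked translation factor gene known to escape inactivation, stood at 36.1, 64.5, 35.4 and 56.0 CPM (0.80, SE 0.10, adjusted p = 4.8e-05). *Cartpt*, a peptide precursor gene, stood at 11.4, 23.2, 24.6 and 58.7 CPM in members (1.14, SE 0.14, adjusted p = 2.14e-05). *Rasgrp1*, a Ras activator gene, was lower in females by 0.55 (adjusted p = 0.032), and was no longer called without the sham members that held cLTMR UMIs (-0.42, adjusted p = 0.106).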

How the data were processed

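Single-cell RNA-seq was measured in 4 libraries of GFP+ DRG cells. The files deposited by the authors hold UMI counts per gene and cell, made with Cell Ranger against mm10 (version 2.1.1 per the submitters' processing notes, 3.0.2 per the matrix headers), without normalization, over 31053 genes. Cells with at least 1500 genes, at most 10% mitochondrial UMIs and at least 5000 UMIs were kept. Neurons were cells with more *Tubb3* than *Fabp7* UMIs, a limit that the rule for members did not include. Counts were summed over the chosen cells of each library, since cells are not replicates, and tested with edgeR 4.0.16 in R 4.3.3 (filterByExpr, TMM, robust quasi-likelihood fit, Benjamini-Hochberg adjustment over all genes tested). Differences between classes used the class-by-surgery term with the library as a block, and the sex test had surgery as a term. *Mrgpra3*, *Nppb* and *Sprr1a* were left out of the calls of the members, and the genes of either membership rule from those between classes. Exact binomial intervals came from scipy 1.17.1. Gene positions and lengths came from GENCODE vM21 on GRCm38. The scripts were tested on simulated data.

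A gene with 0 UMIs was given the limit of 3 UMIs. Scrublet (scanpy 1.11.5, expected rate 0.1) set a threshold that found too few doublets to be of use, so no cell was removed as a doublet, and removing the 15% of cells with the highest scores was an alternative. DESeq2 1.42.0 was tried too, as were all genes without a filter, library totals, sex as a block, each library left out, members without a *Sprr1a* UMI, at least 3 CP10K of *Mrgpra3*, a *Gda* UMI, under 3 CP10K of *Mrgprd* and *Fabp7*, at most 5% mitochondrial UMIs, and *Mrgprd* neurons from 1 CP10K upward. Leaving out members with at least 5 cLTMR UMIs, and the limits on *Mrgprd* and *Fabp7* in the sex test, were chosen after seeing the data.

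The members and gene lists were chosen with earlier results of these data known. Named genes were the markers; the called genes of each neuronal list, at most 6, or its 3 most abundant genes where fewer than 2 were called; the 8 largest increases and decreases with a mean of at least 20 CPM; the 15 genes highest in members against other neurons; the 5 largest called differences in each direction per test; and receptor genes with at least 20 CPM. *Apoe*, *Selenom*, *Pvalb*, *Thy1*, *Mrgprx1*, *Mrgprb4*, *Il31ra*, *Trpv1*, *Trpa1*, *Grp*, *Kcnk18*, *Runx1*, *Atf3*, *Gal*, *Plcb3*, *Gng3*, *Prkcd*, *Th*, *C1ql4*, *Gadd45a*, *Itga7*, *Ifit3*, *Ifit3b*, *Ddx3y* and *Eif2s3y* fall outside this rule and were chosen after their values were seen. A few genes that the rule names are not reported here.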

Additional observations from a re-analysis of the deposited data

Results flagged for a closer look

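The results here are genes whose change after CCI in *Mrgpra3* neurons differed from that of other neurons by the test of the difference itself, given as the log2 change in *Mrgpra3* neurons minus that in the neurons they were compared with. Groups of 2 libraries are too small for a test of single libraries that lie apart.

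Against *Mrgprd* neurons the log2 change, sign included, was higher in *Mrgpra3* neurons for *Flrt3* (2.36), *Ppm1j* (1.38), *Unc119* (0.89), *Aqp1* (0.64) and *Nlk* (0.63), a serine/threonine kinase gene. It was lower for *Gfra2* (-2.26), *Bst2* (-1.35), the protease gene *Tmprss11c* (-1.14), *Agtr1b* (-1.11), *Ifi35* (-1.01), *Nfkbia* (-0.79), *Osmr* (-0.74), *Etv1* (-0.59), *Junb* (-0.55) and *Kcnmb1* (-0.51). A negative value can mean a larger fall in *Mrgpra3* neurons or a larger rise in the neurons they were compared with. *Gfra2* fell by 2.52 in them and stood at 342, 360, 285 and 305 CPM in *Mrgprd* neurons. Its difference was -0.85 (adjusted p = 0.688) without the sham members that held cLTMR UMIs.

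Against all other neurons within the *Sprr1a* limit the log2 change, sign included, was higher for *Kcnq3* (2.08), *Ppm1j* (1.53), *Unc119* (1.05), *Scn8a* (0.79), *Tstd1* (0.77), *Ppp1r1a* (0.68), a phosphatase inhibitor gene, *Cmbl* (0.66), *Htr3a* (0.57), *Nefh* (0.55) and *Grik1* (0.51), a kainate receptor gene. The call of *Htr3a* was lost without Male-Sham (adjusted p = 0.299), Female-Sham (0.0506) or Female-CCI (0.644), and that of *Ppp1r1a* without Male-CCI (0.264). The log2 change was lower for *Kcnk2* (-2.44), *Gfra2* (-2.02), *Ifit3* (-1.75), *Ifit3b* (-1.42), *Plaur* (-1.31), *Fxyd6* (-1.20), *Mustn1* (-1.15), a muscle and skeletal gene (adjusted p = 0.118 without Male-CCI), *Itga7* (-0.92), *Phlda1* (-0.92), *Bst2* (-0.83), *Gadd45a* (-0.74) and *Fos* (-0.61).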

How the results depend on the processing

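The number of genes called between CCI and sham members was 182. It was 60 by DESeq2, 309 without a filter on low counts, 25 in members without a *Sprr1a* UMI and 79 with at least 3 CP10K of *Mrgpra3*, and 119 to 173 with single libraries left out. With sex as a replicate block it was 251, of which 180 were among the 182. The libraries share only their sex, so the block stands for no further pairing. Of the 53 named genes that were called, *Gm8797*, *Mt3*, *Rpl41*, *Usmg5* and *mt-Nd2* were called under all 15 alternatives. The 29 differences from *Mrgprd* neurons became 4 by DESeq2, 74 without the filter, 2 without *Sprr1a* UMIs, 15 without the highest doublet scores and 74 with *Mrgprd* neurons from 1 CP10K upward, and 9 to 54 with single libraries left out. The 85 differences from all other neurons became 26 by DESeq2 and 36 to 115 with single libraries left out, and of the 83 called without *Sprr1a* UMIs 7 were among the 85. The 22 genes of the sex test became 4 by DESeq2, 45 without the filter, 36 without the highest doublet scores and 35 without members with cLTMR UMIs. The difference in the share of neurons was -1.18 points with at least 3 CP10K of *Mrgpra3*, against -2.52. In members without a *Sprr1a* UMI, with 6 and 9 CCI cells, the sign turned for *Bdnf* (-0.12), *Cmbl* (-0.26), *Ddit3* (-0.24), *Flrt3* (-0.40), *Kcnq3* (-0.070), *Nfib* (-0.073), *Nrxn3* (-0.53) and *Sdc1* (-0.57), for the difference from *Mrgprd* neurons of *Aqp1* (-0.16), *Etv1* (0.48) and *Kcnmb1* (0.054), and for that from all other neurons of *Cmbl* (-0.048), *Grik1* (-0.0079) and *Mustn1* (0.074). The difference of *Etv1* from *Mrgprd* neurons was 0.12 with those from 1 CP10K upward. The cause of these moves was not tested. Depth limits the low genes, since 3 UMIs equal 0.932 and 1.17 CPM in the CCI libraries.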
